A study of Mus musculus with 4 samples.

Results

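The lymphoid priming genes described here are 10 genes, *Dntt*, *Rag1*, *Rag2*, *Il7r*, *Satb1*, *Ltb*, *Ccr9*, *Tcf3*, *Ebf1* and *Sox4*. They were chosen by name out of the 18598 genes of the deposited table, with earlier results of these data known. Counts of the 10 set beside shares of all genes are to be read with that limit. All 10 were found by their symbols, and all 10 entered the test, which covered the 14858 genes averaging 10 or more normalized counts. RNA was taken from LSK cells, the lineage-negative, SCA-1-positive, c-KIT-positive fraction of bone marrow, which was sorted from C57BL/6 mice about 3 months old. The 2 *Bptf* cKO libraries carried the genotype *Bptf* -/-, made from floxed *Bptf* alleles with *Mx1*-cre. The 2 control libraries came from littermates, named *Bptf* f/f below. Both groups received pIpC, the double-stranded RNA mimic that switches on *Mx1*-cre through interferon, and LSK cells were sorted 10 days later. *Mx1*-cre acts in more tissues than blood, pIpC is itself an interferon stimulus, and every library pooled the marrow of 5 mice, so variation from mouse to mouse was not measured. Reads on listed genes numbered 24875746 and 14091054 for the *Bptf* f/f pools of replicates 1 and 2, and 30134742 and 14104526 for the *Bptf* cKO pools.

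Lymphoid priming is the low-level transcription of lymphocyte genes in multipotent progenitors before any lymphocyte marker appears on the surface. It is best known from the FLT3-high, lymphoid-primed fraction of LSK cells, where *Dntt* and *Rag1* mark the cells closest to the lymphoid fate. The transcription factors E2A (*Tcf3*) and EBF1 act early in B cell specification. IL-7 receptor signalling sustains the earliest B and T cell progenitors, RAG1 with RAG2 cuts the antigen receptor genes, and the polymerase TdT (*Dntt*) adds nucleotides without a template at the joints. In bulk RNA of a sorted population, fewer cells of a type and less RNA per cell cannot be told apart, which holds for every value below.

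*Dntt*, *Rag1* and *Rag2* encode the enzymes that act directly on antigen receptor genes, and the DNA just before their start sites is shown because the motif of the factors that *Tcf3* encodes can be looked for in it. The windows are the 250 bases before the RefSeq transcript start on GRCm38.p6, read 5′ to 3′ on the strand of the gene, at chr19:41029025-41029274 (plus strand), chr2:101649533-101649782 (minus strand) and chr2:101624462-101624711 (plus strand). Capitals mark E-boxes, the CANNTG motif that E2A proteins can bind, which reads the same as a pattern on both strands.
Dntt: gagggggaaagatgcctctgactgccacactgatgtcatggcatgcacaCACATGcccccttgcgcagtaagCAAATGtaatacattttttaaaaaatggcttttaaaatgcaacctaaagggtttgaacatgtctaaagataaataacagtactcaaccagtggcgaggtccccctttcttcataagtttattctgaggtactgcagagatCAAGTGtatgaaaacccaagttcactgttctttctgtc
Rag1: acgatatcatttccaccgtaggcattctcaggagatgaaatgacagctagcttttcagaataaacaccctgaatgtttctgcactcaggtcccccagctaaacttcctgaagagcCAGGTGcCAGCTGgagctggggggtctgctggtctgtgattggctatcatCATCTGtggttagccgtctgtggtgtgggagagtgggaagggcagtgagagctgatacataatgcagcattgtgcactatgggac
Rag2: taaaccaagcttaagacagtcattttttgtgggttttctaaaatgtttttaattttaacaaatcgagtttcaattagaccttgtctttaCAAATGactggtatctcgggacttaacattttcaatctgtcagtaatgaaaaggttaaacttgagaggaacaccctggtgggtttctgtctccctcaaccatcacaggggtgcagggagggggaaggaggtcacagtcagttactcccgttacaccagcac
The windows of *Dntt* and *Rag1* each held 3 E-boxes and that of *Rag2* held 1. Of the 32851 windows of this length in the RefSeq table, 66.2% held at least 1 E-box and 12.2% at least 3. At least 1 E-box was in 11 of the 15 windows of the 10 genes. A match or its absence describes the letters only.

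*Bptf* itself had 5520 and 5850 normalized counts in the *Bptf* f/f libraries and 3398 and 3320 in the *Bptf* cKO libraries, which is -0.76 on the log2 scale (adjusted p = 0.0439 in limma). The LSK markers were present in all 4 libraries, with *Kit* between 13634 and 17051 normalized counts, *Ly6a* (SCA-1) between 726 and 1743 and *Cd34* between 12749 and 17892. Of markers of other cells, 2 of the 7 T cell genes had listed values, and the mature B cell gene *Ms4a1* lay between 0 and 9.70 normalized counts. The 10 granulocyte and monocyte markers summed to 82548 and 16401 normalized counts in *Bptf* f/f and to 61150 and 51588 in *Bptf* cKO. *Mpo* made up much of this sum, with 28963 and 6313 in *Bptf* f/f and 30321 and 28192 in *Bptf* cKO. *Elane*, *Mpo* and *Ctsg* were highest in replicate 1 of *Bptf* cKO. *Prtn3*, *Lyz2*, *S100a8*, *S100a9*, *Camp*, *Ngp* and *Csf1r* were highest in replicate 1 of *Bptf* f/f. *Ngp*, for example, had 13533 and 997 in *Bptf* f/f and 3521 and 1768 in *Bptf* cKO. The 8 erythroid markers summed to 2651 and 2000 normalized counts in *Bptf* f/f and to 489 and 584 in *Bptf* cKO. The 5 listed of 7 plasmacytoid dendritic cell markers summed to 1480 and 1505 in *Bptf* f/f and to 3848 and 3979 in *Bptf* cKO. *Cox6a2* alone had 37.2 and 11.1 in *Bptf* f/f and 2197 and 1817 in *Bptf* cKO. The fitted log2 difference was above 0 for 4 of the 5 and below 0 for *Spib*. *Spib* had 206 and 41.6 in *Bptf* f/f and 26.0 and 32.5 in *Bptf* cKO. The part of these markers in the results was not tested.

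In limma, 0 of the 10 genes met the rule for a call, a fold over 1.5 at an adjusted p below 0.05, which 110 of the 14858 tested genes met, 0.74% in either direction, 0.37% lower and 0.37% higher. The edgeR and DESeq2 tests on recovered reads also called 0 of the 10, with 3 of the 10 at an unadjusted p under 0.05 in each. Of all tested genes edgeR called 0.303% lower and 0.33% higher, and DESeq2 3% and 1.7%. At an unadjusted p under 0.05 in limma, 3 of the 10 genes were lower in *Bptf* cKO and 0 higher, where 8.96% of all tested genes were lower and 6.79% higher. The fitted log2 difference of *Bptf* cKO against *Bptf* f/f was below 0 for 10 of 10 genes, and for 7400 of the 14858 tested genes. Its median was -0.53 over the 10 genes, beside 0.0010 over all tested genes. For *Rag1*, *Satb1*, *Tcf3*, *Ebf1* and *Sox4* the difference was smaller than its standard error. Within the replicate pairs, 6 of the 10 were lower in *Bptf* cKO in both pairs, where 34.4% of all tested genes were, 0 were higher in both, where 34.5% were, and the other 4 were lower in the replicate 1 pair and higher in the replicate 2 pair, where 31.1% had opposite directions. The *Bptf* cKO libraries lay below both *Bptf* f/f libraries for *Dntt*, *Ltb* and *Ccr9*, 3 of the 10, where 23.8% of all tested genes did, and above both for 0 of the 10, where 23.2% did. *Ccr9* reached the filter mean of 10 only through *Bptf* f/f, with a mean of 34.0 there and 4.22 in *Bptf* cKO. Its place among the lower genes in these counts therefore carries little weight. The tests above left out the replicate number, and the labels do not say what that number marks. With it as a block, limma and edgeR each called 4 of the 10 genes lower. Those blocked fits called 5.69% and 5.75% of all tested genes lower.

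**Figure D1:**
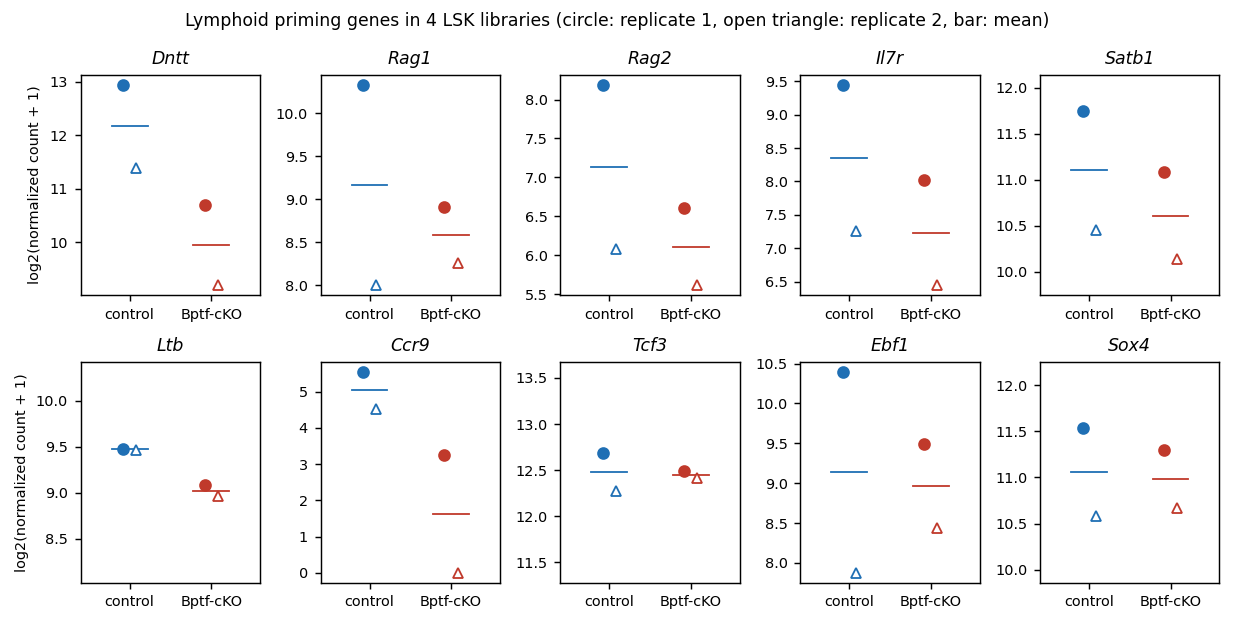
Each panel gives 1 gene as log2 of the normalized count plus 1 in the 2 control (*Bptf* f/f) and the 2 *Bptf* cKO libraries, with filled circles for replicate 1, open triangles for replicate 2 and bars for the group mean, on axes that do not start at 0. The circle stands above the triangle of its genotype in all 10 panels, and the genotypes are separate in those of *Dntt*, *Ltb* and *Ccr9*.

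*Dntt* had 7907 and 2692 normalized counts in the *Bptf* f/f libraries, replicate 1 first, and 1658 and 584 in the *Bptf* cKO libraries. Both *Bptf* cKO libraries were below the lower *Bptf* f/f library, and replicate 1 was the higher one in each genotype. The *Bptf* f/f mean of 5299 ± 3688 (SD, n = 2) was 4.73-fold above the *Bptf* cKO mean of 1121 ± 759 (SD, n = 2). The difference was nearly equal in the 2 pairs, 4.77-fold in replicate 1 and 4.61-fold in replicate 2. The spread within a genotype was also nearly equal, with replicate 1 at 2.94 times replicate 2 in *Bptf* f/f and at 2.84 times in *Bptf* cKO. On the log2 scale the difference was -2.23 (standard error 0.67, 95% interval -3.92 to -0.53), which did not pass in limma after adjustment over all tested genes (adjusted p = 0.221). Counted from the lowest fitted log2 difference, *Dntt* ranked 117 of 14858. At least 414 reads in every library stood behind these values, so counting error was small beside the spread between replicates. The GENCODE vM21 annotation of GRCm38 places *Dntt* at 41029275 to 41059525 of chromosome 19, plus strand, and positions of the other genes are from the same source.

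Both RAG genes were lower in *Bptf* cKO in replicate 1. For replicate 2, *Rag2* was lower by less and *Rag1* was not lower. *Rag1*, the catalytic subunit of the recombinase, had 1287 and 255 normalized counts in *Bptf* f/f and 481 and 306 in *Bptf* cKO, in the order of the replicates. The first *Bptf* f/f library was above the other 3, and the second was the lowest of all 4, so the genotypes overlapped. *Rag1* was accordingly 2.68-fold lower in *Bptf* cKO in the replicate 1 pair, while the log2 difference in the replicate 2 pair was 0.26. Its fitted log2 difference was -0.58 (standard error 0.755, 95% interval -2.49 to 1.33, limma adjusted p = 0.784). *Rag2*, the partner of RAG1 in the recombinase, is its neighbour on chromosome 2, from 101624718 to 101632529 on the plus strand, with *Rag1* from 101638282 to 101649501 on the minus strand. *Rag2* had 291 and 66.5 normalized counts in *Bptf* f/f and 96.2 and 48.0 in *Bptf* cKO. It was lower in *Bptf* cKO in both pairs, 3.03-fold in replicate 1 and 1.39-fold in replicate 2, but the genotypes overlapped. The fitted log2 difference was -1.03 (standard error 0.756, 95% interval -2.94 to 0.88, limma adjusted p = 0.587). With 34 and 48 reads in the replicate 2 libraries, counting error bears on *Rag2* in that pair. *B230118H07Rik*, annotated on the strand of *Rag1*, covers 6.07% of the exon bases of *Rag2*, and the strand rule of the counting is not given in the sources used here.

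**Figure D2:**
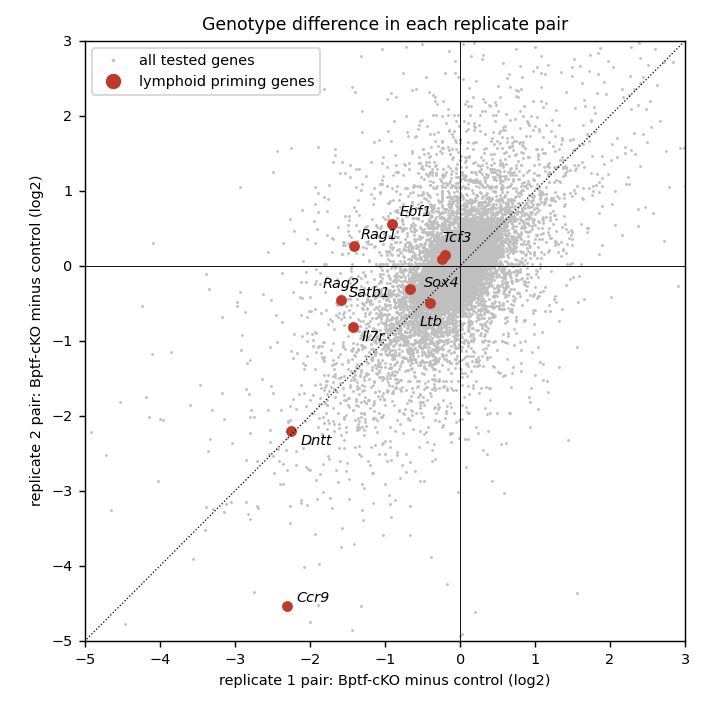
Each point is a gene, with the log2 difference of *Bptf* cKO minus control in the replicate 1 pair on the x axis and in the replicate 2 pair on the y axis. The 10 lymphoid priming genes are red, all tested genes are grey, 136 of which lie outside the axes, and the dotted line marks equal differences. *Dntt* sits on the dotted line at -2.25 and -2.20, *Rag1* and *Ebf1* lie left of 0 and above 0, and *Ccr9* is placed at 0 counts in one library.

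Among the receptors and the ligand, *Il7r*, *Ccr9* and *Ltb* were each lower in *Bptf* cKO in both pairs, *Ltb* by the smallest amount. *Il7r*, the alpha chain of the IL-7 receptor, had 698 and 152 normalized counts in *Bptf* f/f and 259 and 86.1 in *Bptf* cKO. The *Bptf* cKO library of replicate 1 was above the *Bptf* f/f library of replicate 2, so the genotypes overlapped. It was 2.70-fold lower in the replicate 1 pair and 1.77-fold lower in the replicate 2 pair. The fitted log2 difference was -1.12 (standard error 0.85, 95% interval -3.26 to 1.02, limma adjusted p = 0.595). *Il7r* lies on chromosome 15 from 9505788 to 9530176 on the minus strand.

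*Ccr9*, the receptor of the chemokine CCL25 that draws progenitors to the thymus, was the least expressed of the 10. It had 45.7 and 22.2 normalized counts in *Bptf* f/f and 8.45 and 0 in *Bptf* cKO, from 59, 16, 13 and 0 reads. Both *Bptf* cKO libraries were below both *Bptf* f/f libraries. In the replicate 1 pair it was 5.41-fold lower. In the replicate 2 pair it was at least 5.24-fold lower, taking 3 reads, which are 4.23 normalized counts in that library, as the upper limit that 0 reads allow. Such limits cover counting error only. The fitted log2 difference was -3.42 (standard error 1.19, limma adjusted p = 0.270), and it was -1.64 with a pseudocount of 10, because it depends on the pseudocount where a library has 0 reads. *Ccr9* lies on chromosome 9 from 123678439 to 123784330 on the plus strand, where *AC165425.1* on the other strand covers 18.8% of its exon bases.

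*Ltb* encodes lymphotoxin beta, the membrane anchor of the lymphotoxin ligand that lymphoid cells carry. It had 711 and 705 normalized counts in *Bptf* f/f and 540 and 499 in *Bptf* cKO. The libraries of a genotype were close together and the genotypes did not overlap. *Ltb* was 1.32-fold and 1.41-fold lower in the pairs of replicates 1 and 2. The fitted log2 difference was -0.45 (standard error 0.13, 95% interval -0.76 to -0.13), with an unadjusted p of 0.0148 and an adjusted p of 0.202 in limma. *Ltb* was the only one of the 10 whose replicates differed by less than 1.1-fold in both genotypes. It lies on chromosome 17 from 35194439 to 35196320 on the plus strand.

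The 4 transcription factor genes showed no difference between genotypes larger than the spread between replicates. *Satb1*, a chromatin organizer that is higher in lymphoid-primed progenitors, had 3436 and 1403 normalized counts in *Bptf* f/f and 2167 and 1126 in *Bptf* cKO. It was lower in *Bptf* cKO in both pairs, 1.59-fold and 1.25-fold, with overlapping genotypes and a fitted log2 difference of -0.49 (standard error 0.50, 95% interval -1.76 to 0.77, limma adjusted p = 0.708). *Ebf1*, the B cell specification factor, had 1346 and 234 normalized counts in *Bptf* f/f and 718 and 346 in *Bptf* cKO. Both *Bptf* cKO libraries lay between the 2 *Bptf* f/f libraries. The log2 difference of *Ebf1* was -0.91 for replicate 1 and 0.56 for replicate 2, and the fitted value was -0.17 (standard error 0.85, 95% interval -2.32 to 1.97, limma adjusted p = 0.953).

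*Tcf3*, which encodes the E proteins E12 and E47, had 6565 and 4938 normalized counts in *Bptf* f/f and 5734 and 5443 in *Bptf* cKO. Its *Bptf* cKO libraries also lay between the *Bptf* f/f libraries. The fitted log2 difference was -0.027 (standard error 0.15, 95% interval -0.42 to 0.36, limma adjusted p = 0.960), and 0.024 with the libraries recentred on their medians. *Sox4*, a SOX factor needed for early B cell development, had 2969 and 1526 normalized counts in *Bptf* f/f and 2510 and 1630 in *Bptf* cKO, again with both *Bptf* cKO libraries inside the *Bptf* f/f range. Its fitted log2 difference was -0.074 (standard error 0.36, 95% interval -0.99 to 0.84, limma adjusted p = 0.953). *Gm26735* on the other strand covers 54.6% of the exon bases of *Sox4*, so without strand reads of the 2 genes cannot be told apart. In order, *Satb1*, *Ebf1*, *Tcf3* and *Sox4* lie on chromosomes 17, 11, 10 and 13, from 51736187 to 51833290, 44617317 to 45008091, 80409514 to 80433647 and 28948919 to 28953713. *Ebf1* is on the plus strand and the other 3 are on the minus strand.

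Leaving out 1 library changed the sign of several fitted differences, and the size of others. Such a fit sets 1 library of a genotype against 2 of the other, so the gap between replicates enters the difference. *Rag2* and *Satb1*, whose sign changed in the first fit below, were lower in *Bptf* cKO in both replicate pairs. Without the *Bptf* f/f library of replicate 1, the fitted log2 difference was 0.59 for *Rag1*, 0.031 for *Rag2*, 0.16 for *Satb1*, 1.09 for *Ebf1*, 0.41 for *Sox4* and 0.18 for *Tcf3*. It was -0.029 for *Il7r*, -1.45 for *Dntt*, -2.91 for *Ccr9* and -0.44 for *Ltb*. Without the *Bptf* cKO library of replicate 2, it was 0.35 for *Ebf1*, 0.24 for *Sox4* and 0.010 for *Tcf3*, -1.48 for *Dntt*, -0.34 for *Il7r* and -1.80 for *Ccr9*. Without the *Bptf* cKO library of replicate 1 it was -5.04 for *Ccr9*, -2.98 for *Dntt* and -1.91 for *Il7r*. Without the *Bptf* f/f library of replicate 2 it was -3.005 for *Dntt*, -1.74 for *Rag1*, -2.08 for *Rag2* and -2.22 for *Il7r*.

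All 10 genes also differed between the replicates in 1 direction. Replicate 1 was above replicate 2 in both genotypes for 10 of the 10 genes, where this held for 33.3% of all tested genes. The median log2 difference of replicate 1 minus replicate 2 over the 10 genes was 1.42 in *Bptf* f/f and 0.97 in *Bptf* cKO, beside -0.0025 and 0.0045 over all tested genes. On the scale of log2(normalized count + 1) it exceeded 2-fold in both genotypes for 4 of the 10, *Dntt*, *Il7r*, *Ebf1* and *Ccr9*, the last with 0 reads in 1 library, and for 1.06% of all tested genes. *Rag2* was just short of that on this scale, at 0.99 in *Bptf* cKO, while its normalized counts were just over 2-fold apart. The *Bptf* f/f libraries differed most in *Ebf1*, 5.75-fold, *Rag1*, 5.05-fold, *Il7r*, 4.58-fold, and *Rag2*, 4.38-fold. In normalized counts of *Bptf* cKO the same genes differed 2.08-fold, 1.57-fold, 3.01-fold and 2.01-fold between replicates. *Dntt* and *Il7r* were thus the 2 genes of the 10 measured in every library whose replicates were furthest apart in *Bptf* cKO, and *Tcf3* and *Ltb* the 2 with the smallest gaps in both genotypes.

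The B lineage genes, a list of 19 that begins with *Pax5*, also differed between replicates. Of its 17 tested genes, 13 were higher in replicate 1 in both genotypes, where 33.3% of all tested genes were. The median log2 gap of the list was 2.06 in *Bptf* f/f and 0.71 in *Bptf* cKO. *Pax5*, the factor that commits cells to the B lineage, had 1710 and 410 normalized counts in *Bptf* f/f and 902 and 504 in *Bptf* cKO. *Cd79a*, a subunit of the B cell receptor, had 1166 and 209 in *Bptf* f/f and 629 and 385 in *Bptf* cKO. Both genes had their *Bptf* cKO libraries inside the range of the *Bptf* f/f libraries, as *Ebf1* had. Of the granulocyte and monocyte markers, 9 of 10 were also higher in replicate 1 in both genotypes, beside the same 33.3% of all tested genes. Their median log2 gap was 2.16 in *Bptf* f/f and 0.16 in *Bptf* cKO. The replicate 1 libraries were the deeper ones in both genotypes. The part of these values in the differences between genotypes was not tested, and nothing in the labels says that a replicate number marks a shared day or batch.

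**Figure D3:**
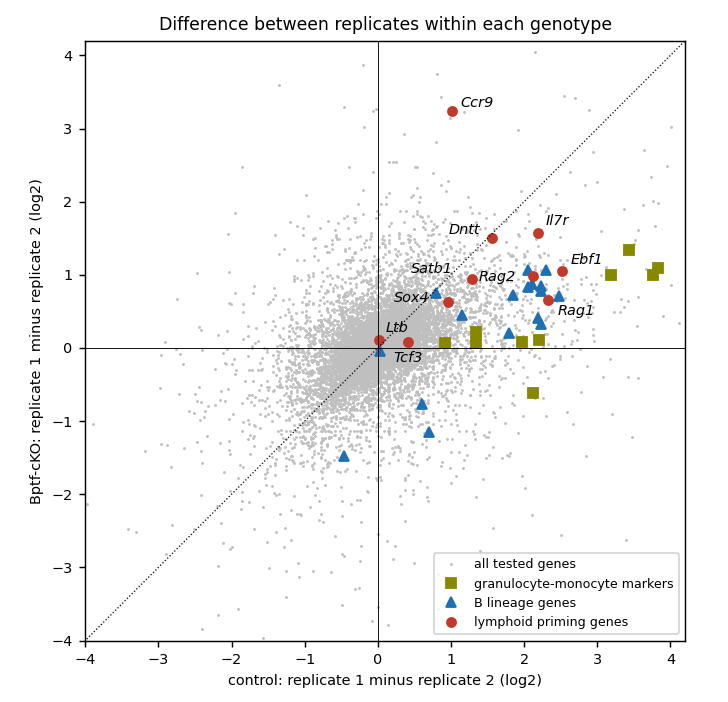
Each point is a gene, with the log2 difference of replicate 1 minus replicate 2 in control libraries on the x axis and in *Bptf* cKO libraries on the y axis. Lymphoid priming genes are red circles, B lineage genes blue triangles, granulocyte and monocyte markers olive squares and all tested genes grey, of which 80 lie outside the axes. All 10 lymphoid priming genes lie right of 0 and above 0, with *Ltb* nearest to the origin. All but *Ltb* and *Ccr9* lie below the dotted line of equal gaps, *Dntt* only just.

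Levels of different genes were compared per length, as normalized counts per kb of exon in GENCODE vM21. In *Bptf* f/f the highest mean level per kb was that of *Dntt* at 2312, followed by *Tcf3* at 1424, *Sox4* at 469, *Ltb* at 467, *Satb1* at 127, *Rag1* at 117, *Il7r* at 91.2, *Ebf1* at 81.0, *Rag2* at 52.3 and *Ccr9* at 3.31. The libraries of *Dntt* and *Tcf3* overlapped, as did those of *Sox4* and *Ltb* and each neighbouring pair from *Satb1* to *Rag2*. In *Bptf* cKO *Tcf3* came first at a mean of 1384 per kb, and *Dntt* was next at 489, with *Sox4* at 432 and *Ltb* at 343. There *Tcf3* was above *Dntt* in both libraries, and the levels of *Dntt*, *Sox4* and *Ltb* overlapped. Within a library, the level per kb of *Dntt* was 2.12 and 0.96 times that of *Tcf3* in the *Bptf* f/f libraries and 0.51 and 0.189 times in the *Bptf* cKO libraries. All these exon lengths join every annotated transcript of a gene, and those of *Ccr9* reach far upstream of its RefSeq start, so its reads were divided by a long length.

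By the distance between log2 values in the 4 libraries, each centred on its own mean, the genes most like *Dntt* among 10814 with a mean of at least 100 were *Kcng1*, *Slc35d3*, *H2-Ob*, *Gm16758* and *Nat8l*, at distances of 0.27 to 0.75. *Kcng1*, a potassium channel subunit, had 416 and 137 normalized counts in *Bptf* f/f and 78.6 and 35.3 in *Bptf* cKO. *H2-Ob*, a chain of the class II chaperone H2-O, had 1954 and 620 in *Bptf* f/f and 278 and 189 in *Bptf* cKO. Of the 10 genes themselves, *Il7r* ranked 31 and *Rag2* 39 by this distance, and *Tcf3* ranked 2815. With 4 libraries many genes fall close by this measure.

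In the pathways around these genes, none of the tested genes of 9 lists passed the limma rule in either direction, which 0.74% of all tested genes did. Counts at an unadjusted p under 0.05 in limma are given for each list. Over all tested genes, 8.96% were lower at that level and 6.79% higher, the shares that all these list counts are to be read beside. The early lymphoid priming list of 13 genes had 2 lower and 1 higher at that level and a median log2 difference of -0.26. *Flt3*, the receptor that marks lymphoid-primed LSK cells, had 9391 and 5832 normalized counts in *Bptf* f/f and 5960 and 3214 in *Bptf* cKO, a fitted log2 difference of -0.76 (limma adjusted p = 0.395). *Irf8*, a factor of B and dendritic cells, had 1789 and 708 in *Bptf* f/f and 645 and 604 in *Bptf* cKO, with a log2 difference of -0.85 (limma adjusted p = 0.424). *Flt3* was lower in both pairs and higher in replicate 1 of both genotypes, as *Dntt* was, but its genotypes overlapped, unlike those of *Dntt*. Of all tested genes, 34.4% were lower in both pairs and 33.3% were higher in replicate 1 of both genotypes. Both *Bptf* cKO libraries of *Irf8* lay below both *Bptf* f/f libraries, as did those of 23.8% of all tested genes.

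Among the partners of E2A, 5 of the 6 listed E protein and Id genes were tested, with 1 lower and 0 higher at an unadjusted p under 0.05 and a median of -0.060. *Id3*, an Id protein that blocks E protein binding to DNA, had 138 and 83.2 normalized counts in *Bptf* f/f and 37.7 and 35.3 in *Bptf* cKO (log2 difference -1.53, limma adjusted p = 0.147). *Id2*, another such inhibitor, had 129 and 132 in *Bptf* f/f and 170 and 586 in *Bptf* cKO (log2 difference 1.27, limma adjusted p = 0.380), so most of its difference came from 1 library. The V(D)J recombination and end joining list had 13 tested genes, with 2 lower and 0 higher at that level and a median of -0.16. *Polm*, the polymerase mu that is closely related to TdT, had 102 and 107 normalized counts in *Bptf* f/f and 45.5 and 46.6 in *Bptf* cKO, a log2 difference of -1.16 (limma adjusted p = 0.145). Unlike *Dntt*, *Polm* had replicates within 1.1-fold of each other in both genotypes. *Xrcc4*, which joins DNA ends with ligase IV, had a log2 difference of -0.45 (limma adjusted p = 0.363).

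In the IL-7 receptor signalling list of 11 genes, 2 were lower and 2 higher at an unadjusted p under 0.05, and the median was -0.16. *Cish*, a target of STAT5, had 675 and 784 normalized counts in *Bptf* f/f and 458 and 388 in *Bptf* cKO (log2 difference -0.79, limma adjusted p = 0.113). *Mcl1*, a survival gene of lymphoid progenitors, had a log2 difference of -0.59 (limma adjusted p = 0.0999). The lymphotoxin list of 9 genes had 1 lower and 2 higher at that level and a median of 0.13. *Lta*, the partner of lymphotoxin beta, had 3.10 and 6.93 normalized counts in *Bptf* f/f and 31.8 and 15.5 in *Bptf* cKO (log2 difference 2.03, limma adjusted p = 0.259), and *Tnfsf14* had a log2 difference of -0.70 (limma adjusted p = 0.145). Of the 5 tested lymphoid homing receptors, 0 were lower and 1 higher at that level, with a median of -0.19. *Itgb7*, the integrin chain for gut homing, had 914 and 696 in *Bptf* f/f and 1628 and 2101 in *Bptf* cKO (log2 difference 1.21, limma adjusted p = 0.0751). *Ccr7* had a log2 difference of -0.72 (limma adjusted p = 0.569). The 3 tested paralogs of the 10 genes had a median log2 difference of 0.33, the value of *Polb*, a DNA polymerase related to TdT, and 0 of them had an unadjusted p under 0.05.

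Of the 17 tested B lineage genes, 1 was lower and 0 higher at an unadjusted p under 0.05, beside 8.96% and 6.79% of all tested genes. Opposite directions in the 2 pairs were seen for 12 of the 17, and for 31.1% of all tested genes. Their median log2 difference was -0.19. *Blk*, a kinase of the B cell receptor pathway, had 85.3 and 48.5 normalized counts in *Bptf* f/f and 7.80 and 4.23 in *Bptf* cKO (log2 difference -3.27, limma adjusted p = 0.0820). The log2 difference of *Blk* was -3.29 and -3.24 in the pairs of replicates 1 and 2, on 12 and 3 reads in the *Bptf* cKO libraries. *Blnk*, the adaptor of that pathway, had 1525 and 326 in *Bptf* f/f and 350 and 279 in *Bptf* cKO (log2 difference -1.17, limma adjusted p = 0.498). The 11 tested T and NK genes had 1 lower and 2 higher at that level and a median of 0.60, with *Klrb1c* at 1.55 (limma adjusted p = 0.174). On recovered reads, edgeR called 0 genes of the 9 lists. DESeq2 called 1 lower and 1 higher in the early lymphoid priming list, 2 lower in the IL-7 receptor list, 1 lower each in the E protein, lymphotoxin and B lineage lists and 1 higher among the homing receptors, where it called 3% of all tested genes lower and 1.7% higher.

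**Figure D4:**
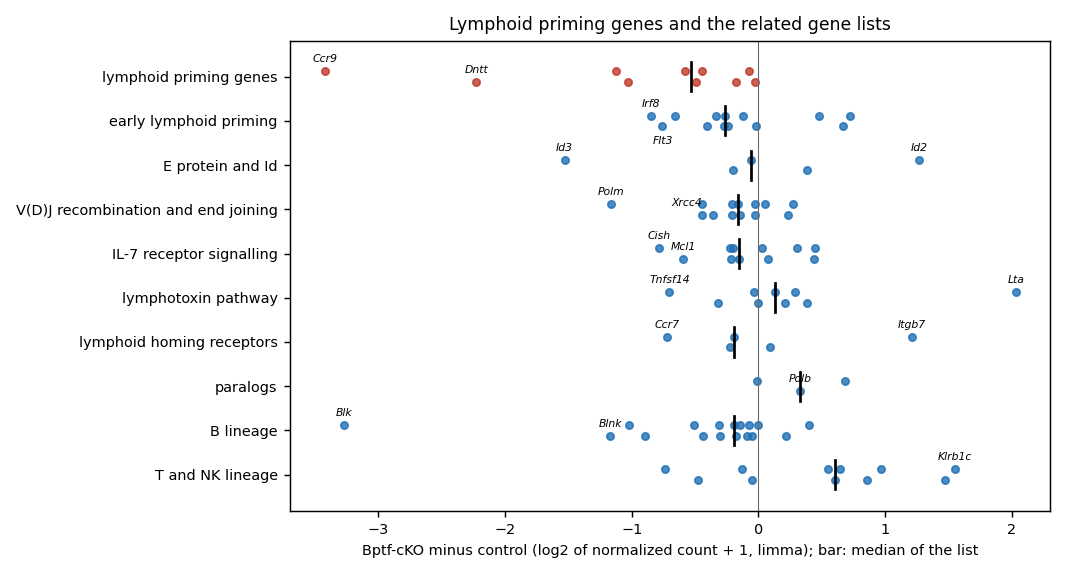
Each point is a tested gene at its fitted log2 difference of *Bptf* cKO minus control, in rows for the 10 lymphoid priming genes in red and for the 9 related lists in blue, with a bar at the median of each list. The median of the lymphoid priming genes is -0.53, with *Dntt* and *Ccr9* far to the left, and *Blk* is the only gene of the other lists below -3.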

How the data were processed

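RNA-seq of LSK cells was analysed from the table deposited by the authors for 2 *Bptf* f/f and 2 *Bptf* cKO libraries. The submitters' processing notes name HISAT2, featureCounts, DESeq2 and GRCm38/mm10; versions and settings are not given in the sources used here. The deposited values are counts divided by a size factor for each library, a normalized signal, and 100% of them gave whole reads within 0.01 of a read. The authors' mean and their comparison columns (log2 fold change and its error, test score, p-values) were not used. Listed genes had at least 11 reads over the 4 libraries. Groups came from the sample labels.

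Genes averaging 10 or more normalized counts were tested on log2(normalized count + 1) with limma 3.58.1 in R 4.3.3, with trend and genotype only, two-sided, with Benjamini-Hochberg adjustment over 14858 genes. Fold changes on this scale understate those of low genes. A call needed an adjusted p under 0.05 and a fold above 1.5. edgeR 4.0.16 and DESeq2 1.42.0 were run on recovered reads, and other pseudocounts, filters and scalings were tried. The scripts were tested on simulated data. Each replicate is 1 pool of mice, so p-values measure the spread between these pools, and an exact permutation test of 2 against 2 libraries cannot go below 0.333. Differences within each replicate pair are given as values, and limma and edgeR fits with the replicate number as a block were run as alternatives. All 10 genes were named, and of each pathway list the 2 tested genes of largest absolute log2 difference, except 2 genes not reported here; *Pax5* and *Cd79a* were picked once values were known. The 5 genes most like *Dntt* were taken by Euclidean distance. The genes and lists were chosen with earlier results of these data known. Start sites and sequences are from RefSeq, and gene positions and exon lengths from GENCODE vM21.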

Additional observations from a re-analysis of the deposited data

How the results depend on the processing

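Replicate numbers are shared by the genotypes, but the labels do not say what a number marks. Deviations from the group means of same-numbered libraries correlated at 0.452 over 14858 tested genes and at 0.638 over 10815 genes with a mean of at least 100, with only 2 pairs. With the replicate number as a block, limma called 4 of the 10 genes lower, *Dntt* (adjusted p = 6.978e-08), *Il7r* (0.003472), *Ccr9* (0.01015) and *Rag2* (0.04443), and edgeR called 4 with the block; these fits called 845 (5.69%) and 854 (5.75%) of all tested genes lower, and 454 and 457 higher. Against 55 lower and 55 higher, DESeq2 called 446 and 252, with no adjusted p for 865 genes, and limma without trend called 0 (1224 at an unadjusted p under 0.05) and 2. With 1 library left out, where the lone library is assumed to vary like the other group, limma called 0 to 45 lower and 1 to 78 higher. It called 0 lower (925 at an unadjusted p under 0.05) and 1 higher without replicate 1 of *Bptf* cKO, 2 and 2 without replicate 2 of *Bptf* cKO, 45 and 78 without replicate 1 of *Bptf* f/f and 21 and 47 without replicate 2 of *Bptf* f/f. The log2 difference then ranged from -5.04 to -1.80 for *Ccr9*, -3.005 to -1.45 for *Dntt*, -2.218 to -0.02938 for *Il7r*, -1.743 to 0.5877 for *Rag1*, -2.084 to 0.03093 for *Rag2*, -1.137 to 0.1554 for *Satb1*, -0.2327 to 0.178 for *Tcf3*, -1.433 to 1.085 for *Ebf1*, -0.5539 to 0.4062 for *Sox4* and -0.5027 to -0.3902 for *Ltb*. Recentring on library medians, which moved the median of all tested genes from 0.001002 to 0.05252, gave *Tcf3* 0.02417. The cause of these changes was not tested. *Ccr9* rested on 0 to 59 reads per library and *Rag2* on 34 to 376.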
